A study of Mus musculus with 10 samples.

Results

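The interleukin 1 family genes described here are 10 of the 38922 genes measured in livers of CD95-Ab- and saline-injected mice. They comprise the ligands Il1a, Il1b, Il33 and Il18, the receptor antagonist Il1rn, the IL-18 binding protein Il18bp, and the receptors Il1r1, Il1rap, Il1r2 and Il1rl1. They were taken by gene symbol, after the Ensembl identifiers had been mapped to mouse GENCODE symbols, and all 10 were found. The mice were wild-type C57Bl/6N males, 6 weeks old. The CD95-Ab group (n = 5) received 0.5 µg/g of CD95-Ab intraperitoneally, the hamster antibody clone Jo2 that activates the death receptor CD95 and kills hepatocytes. Control mice (n = 5) received the same volume of saline, and no isotype control antibody was included in the samples analysed here. All 10 mice were sacrificed at 6 h and each gave its own library of whole-liver RNA. The libraries held 25965699 to 62097636 counts. Apart from the injection, strain, sex, age and time were shared by both groups.

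Interleukin 1 family cytokines carry signals of tissue injury. IL-1α and IL-33 are released from damaged cells, whereas IL-1β and IL-18 are made as precursors and cut by caspase-1 in the inflammasome. IL-1α and IL-1β bind IL1R1, which recruits the shared accessory chain IL1RAP and the adaptor MYD88 to activate NF-kB. The antagonist encoded by Il1rn occupies IL1R1 without signalling, IL1R2 is a decoy receptor with no signalling domain, and IL-18BP neutralizes IL-18. IL-33 signals through IL1RL1, also called ST2, together with IL1RAP. In the liver, IL-1 is best known for driving the acute-phase response of hepatocytes.

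Several members lay side by side in the genome (GRCm38). Il1r2, Il1r1, Il1rl1 and the related Il1rl2, Il18r1 and Il18rap filled a 478-kb stretch of chromosome 1 (chr1:40074079-40551705), and Il1a and Il1b filled 71.5 kb of chromosome 2 (chr2:129299610-129371139). The other members were at chr2:24336853-24351494 (Il1rn), chr9:50554827-50581840 (Il18), chr7:102014885-102018690 (Il18bp), chr16:26581704-26730117 (Il1rap) and chr19:29925114-29960718 (Il33). The 250 bases before the annotated start were searched for 5 motifs on both strands, because the members moved differently in the data below. The motifs were the NF-kB consensus, AP-1 (TGANTCA), C/EBP (TTGCNNAA), STAT (TTCNNNGAA) and the TATA box (TATAAA). Among 32851 mouse windows of this length, they were found in 7.25%, 6.75%, 9.56%, 7.02% and 12.4%, respectively. All 10 members had a window, with 15 windows in all because some genes have several starts. The windows of the ligand pair Il1a (chr2:129309973-129310222, minus strand) and Il1b (chr2:129371140-129371389, minus strand), of the first start of Il1rn (chr2:24336610-24336859, plus strand) and of the second start of Il33 (chr19:29945540-29945789, plus strand) are shown from RefSeq (GRCm38.p6), 5′ to 3′, since these were the called soluble members. Of several starts, the one with the most matches is shown. Capitals mark the motif matches.
Il1a: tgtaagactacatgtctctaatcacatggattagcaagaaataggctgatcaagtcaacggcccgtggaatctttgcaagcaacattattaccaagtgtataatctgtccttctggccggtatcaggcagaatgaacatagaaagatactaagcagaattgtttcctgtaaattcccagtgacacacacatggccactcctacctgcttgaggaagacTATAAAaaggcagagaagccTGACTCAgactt
Il1b: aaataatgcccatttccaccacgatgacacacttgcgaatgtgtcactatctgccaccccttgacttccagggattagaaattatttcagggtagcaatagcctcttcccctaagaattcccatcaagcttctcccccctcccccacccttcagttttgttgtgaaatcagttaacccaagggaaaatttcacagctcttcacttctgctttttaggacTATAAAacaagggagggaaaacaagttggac
Il1rn: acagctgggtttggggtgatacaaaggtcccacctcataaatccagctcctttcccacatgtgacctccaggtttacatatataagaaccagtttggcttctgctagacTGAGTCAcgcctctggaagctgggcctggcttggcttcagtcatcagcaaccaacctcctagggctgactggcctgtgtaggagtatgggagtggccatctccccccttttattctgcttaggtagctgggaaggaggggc
Il33: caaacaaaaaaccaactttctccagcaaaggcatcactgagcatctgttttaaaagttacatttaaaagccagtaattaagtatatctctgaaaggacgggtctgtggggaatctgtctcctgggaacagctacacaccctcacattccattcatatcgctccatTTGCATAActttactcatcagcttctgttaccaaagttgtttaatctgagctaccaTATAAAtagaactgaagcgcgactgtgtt
Counting the base before the start as -1, Il1a held TATAAA from -32 to -27 and Il1b from -31 to -26, and the second start of Il33 held it from -29 to -24. Il1a also held an AP-1 match from -12 to -6, and Il1rn held one from -141 to -135. The Il33 window in addition held a C/EBP match from -85 to -78. The NF-kB consensus was matched in 1 of the 15 windows, at the second start of Il1r1. Over all 10 members, the TATA box was matched in 4, C/EBP in 4, AP-1 in 2 and STAT in 1. Some of these genes have several windows, so these counts of genes cannot be set directly beside the shares of single windows above. Members not called or not tested below also held matches. Il18 held a TATA box match on the reverse strand from -175 to -170, and C/EBP matches lay in Il18bp (-49 to -42) and Il1rl1 (-34 to -27). A match says only that the letters are present, and which start was used cannot be read from values per gene.

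The comparison of CD95-Ab with saline addressed how liver gene expression changes in acute liver failure. At 6 h, transcripts of Il1a, Il1b, Il33, Il1rn, Il1r1 and Il1r2 were higher in the CD95-Ab group, Il1rap was lower, and Il18 and Il18bp were not called. The antagonist Il1rn and the decoy receptor Il1r2 had the highest fold changes of the family. A gene was called when the false discovery rate (FDR, Benjamini-Hochberg over all tested genes) of edgeR's quasi-likelihood test was 0.05 or less. Of the 10 members, 9 passed the filter on low counts, and 7 of these were called, 6 higher and 1 lower. Among all 13719 genes tested, 47.3% were called in either direction, 25.4% higher and 22.0% lower. All 6 higher members reached the study's size threshold, a log2 value of at least 2, as did 6.59% of all tested genes, while Il1rap was not among the 1.11% that fell by as much. Il1a and Il1r1 were just above that size, at 2.10 and 2.14. Il1r2 had 1 to 16 counts in saline mice and passed the filter through the CD95-Ab mice. Being so low in saline, it could hardly have been called lower. With at least 10 counts required in every mouse it was not tested, 6 members were called and 5 reached the size threshold. The median log2 fold change was 2.14 over the 9 tested members and 0.01 over all tested genes. Values of the members in each mouse are given as CPM, the count scaled to a library total of 1000000, and folds are those of the fitted model.

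**Figure D1:**
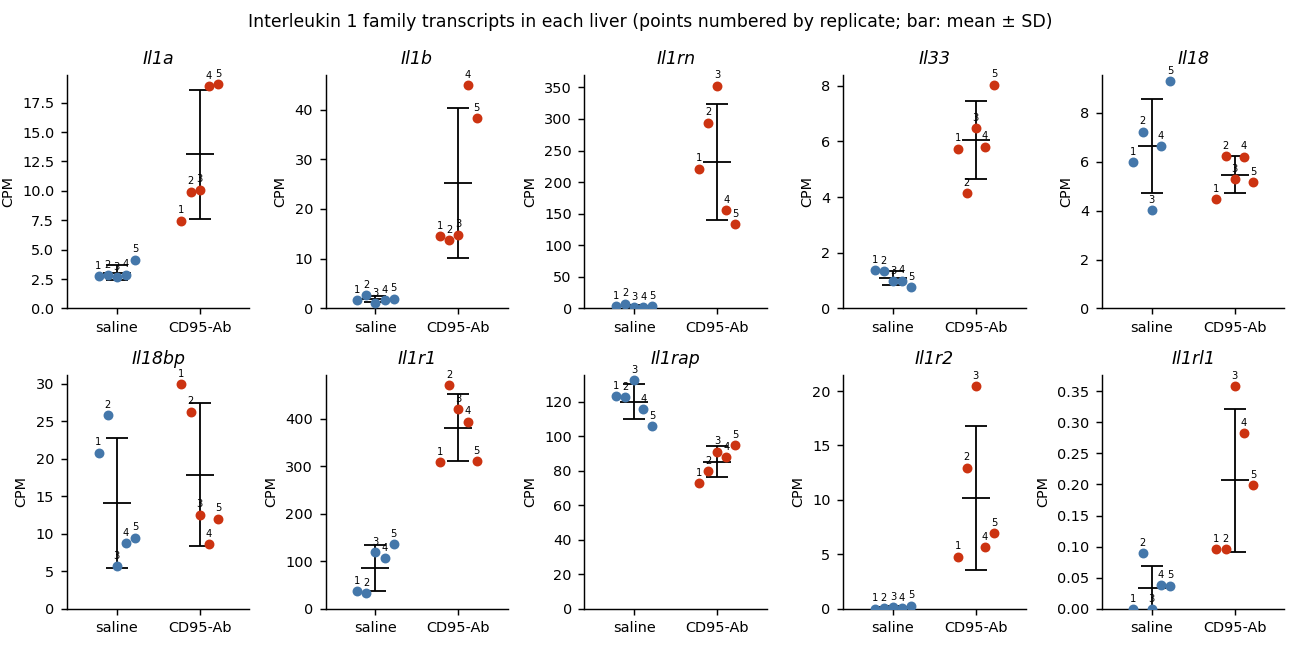
CPM of the 10 members (vertical axes, each starting at 0) in 5 saline (blue) and 5 CD95-Ab (red) livers, with points numbered by replicate and bars for mean ± SD. Il1a, Il1b, Il1rn, Il33, Il1r1 and Il1r2 were higher in all 5 CD95-Ab mice than in any saline mouse, Il1rap was lower in all 5, and Il18 and Il18bp overlapped between groups.

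Il1b, which encodes the main secreted IL-1 agonist, was at 1.72, 2.76, 1.07, 1.62 and 2.00 CPM in saline mice 1 to 5. In CD95-Ab mice 1 to 5 it was at 14.5, 13.7, 14.8, 44.8 and 38.3 CPM. The groups were far apart, and CD95-Ab mice 4 and 5 stood above the other 3. The mean rose from 1.83 ± 0.617 to 25.2 ± 15.1 CPM (SD, n = 5), 13.7-fold, with a log2 fold change of 3.78 ± 0.41 (SE) and an FDR of 2.36e-05 by edgeR.

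Il1a encodes the agonist that is active without cleavage. Its values were 2.73, 2.85, 2.65, 2.89 and 4.15 CPM in saline mice and 7.48, 9.94, 10.1, 18.9 and 19.1 CPM in CD95-Ab mice. All CD95-Ab mice were above all saline mice, as for 18.6% of all tested genes, and the same mice 4 and 5 were again the highest. The log2 fold change was 2.10 ± 0.28 (SE), 4.27-fold, with an FDR of 8.59e-05 by edgeR. It was 1.90 without CD95-Ab mouse 4 and 1.92 without CD95-Ab mouse 5, still called but under that size threshold.

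Il33, the nuclear alarmin, was at 1.36, 1.33, 0.986, 1.0005 and 0.779 CPM in saline mice. It was at 5.74, 4.14, 6.49, 5.81 and 8.04 CPM in CD95-Ab mice. No values overlapped, and the spread within the CD95-Ab group was narrower than for Il1a and Il1b, with the highest mouse 1.94 times the lowest compared to 2.55 and 3.27 times. Il33 rose 5.53-fold, with a log2 fold change of 2.47 ± 0.23 (SE) and an FDR of 6.01e-06 by edgeR.

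Il18 was the only ligand of the 4 that was not called. It was at 6.00, 7.23, 4.03, 6.66 and 9.31 CPM in saline mice and at 4.46, 6.24, 5.29, 6.22 and 5.16 CPM in CD95-Ab mice. The CD95-Ab values lay within the saline range. Its log2 fold change was -0.28 with a 95% interval from -0.73 to 0.16 and an FDR of 0.277 by edgeR. The upper end of the interval was below the folds of the other 3 ligands. The annotated span of Il18 overlaps Bco2 and Tex12 on the opposite strand.

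The antagonist Il1rn was at 3.83, 7.56, 2.48, 2.35 and 3.21 CPM in saline mice. It reached 221, 294, 353, 156 and 134 CPM in CD95-Ab mice. The groups were separated by more than the whole range of either on a log scale, and CD95-Ab mice 4 and 5, the highest for Il1a and Il1b, were the lowest of their group. The antagonist rose 59.5-fold, a log2 fold change of 5.89 ± 0.42 (SE) with an FDR of 1.44e-06 by edgeR. Secreted and intracellular forms of the antagonist start at different first exons, and values per gene do not separate them.

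Il18bp, the soluble inhibitor of IL-18, was at 20.8, 25.8, 5.69, 8.77 and 9.49 CPM in saline mice and at 29.9, 26.3, 12.5, 8.60 and 12.0 CPM in CD95-Ab mice. The groups overlapped almost fully, and replicates 1 and 2 were the highest in each. Its log2 fold change was 0.34 with a 95% interval from -0.63 to 1.31 and an FDR of 0.553 by edgeR. The 3′ end of Il18bp overlaps Numa1 on the opposite strand in the annotation, and whether the libraries kept strand is not given in the sources used here.

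**Figure D2:**
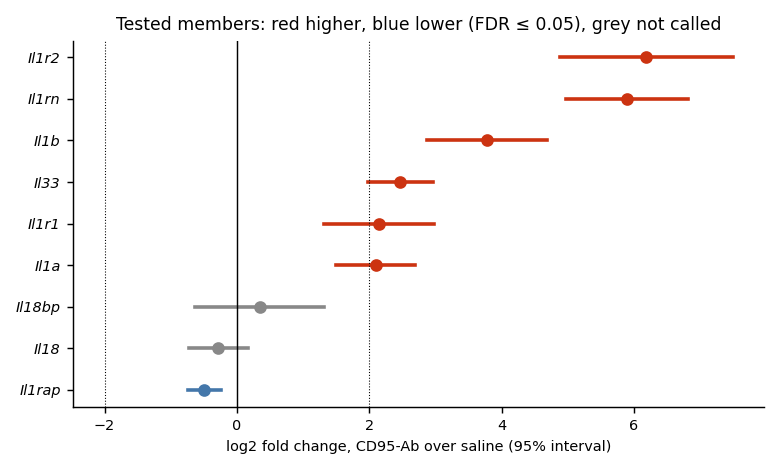
Log2 fold change of CD95-Ab over saline (horizontal axis) for the 9 tested members, with 95% intervals. Red members were called higher, the blue member lower and grey ones were not called, and dotted lines mark a size of 2 in either direction. Il1r2 at 6.19 and Il1rn at 5.89 lie far to the right, Il1a at 2.10 and Il1r1 at 2.14 lie on the dotted line, and the intervals of Il18 and Il18bp include 0.

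The signalling receptor Il1r1 was at 37.3, 32.5, 119, 107 and 135 CPM in saline mice 1 to 5 and at 309, 471, 421, 394 and 311 CPM in CD95-Ab mice. Saline mice 1 and 2 stood apart below the other 3, but even the highest saline mouse was below the lowest CD95-Ab mouse. The log2 fold change was 2.14 ± 0.38 (SE), 4.42-fold, with an FDR of 0.000734 by edgeR. It fell under 2 when either low control was left out, to 1.95 without saline mouse 1 and 1.93 without saline mouse 2, and remained called in both cases.

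Il1rap, the accessory chain of the IL-1 and IL-33 receptors, moved the other way. It was at 123, 123, 133, 116 and 106 CPM in saline mice and at 72.8, 79.9, 91.1, 88.04 and 94.8 CPM in CD95-Ab mice. All CD95-Ab mice were below all saline mice, as for 14.7% of all tested genes. The log2 fold change was -0.49 ± 0.11 (SE), that is 1.41-fold higher in saline, with an FDR of 0.00393 by edgeR. On the deposited FPKM scale, which divides by length and library total, the groups touched, at 39.0 to 58.8 in saline and 31.9 to 39.5 in CD95-Ab mice. The antisense gene Gm20319 overlaps Il1rap, so reads of both cannot be told apart without strand.

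The decoy receptor Il1r2 rose from near absence. It had 1, 2, 6, 2 and 16 counts in saline mice, or 0.02, 0.06, 0.17, 0.08 and 0.30 CPM. In CD95-Ab mice it had 149, 407, 514, 140 and 314 counts, or 4.78, 12.96, 20.5, 5.65 and 6.95 CPM. The controls were under 3 counts in 3 of 5 mice, whereas each CD95-Ab mouse was far above that. The log2 fold change was 6.19 ± 0.60 (SE), 72.8-fold, and the FDR was 9.79e-06 by edgeR. Its size depended on saline mouse 5, which held most of the control counts, and was 6.90 without that mouse. It was 5.76 without CD95-Ab mouse 3, the highest. Its order against Il1rn was not stable, since without saline mouse 2 the log2 fold changes were 6.01 for Il1r2 and 6.27 for Il1rn.

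The IL-33 receptor chain Il1rl1 was almost undetected in these livers. It had 0, 3, 0, 1 and 2 counts in saline mice and 3, 3, 9, 7 and 9 counts in CD95-Ab mice, 6 and 31 counts in all. It did not pass the count filter. Without a filter its log2 fold change was 2.51 with an FDR of 0.0149 by edgeR, and DESeq2 gave 2.65 with an FDR of 0.00847. These values rest on at most 9 counts in any mouse.

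Levels of different members were compared per length, as FPKM. In saline livers the order of the mean FPKM was Il1rap (52.5 ± 8.4), Il1r1 (18.2 ± 9.0), Il18bp (11.3 ± 7.9), Il18 (10.5 ± 2.5), Il1rn (2.31 ± 1.63), Il1a (1.62 ± 0.18), Il1b (1.54 ± 0.64), Il33 (0.462 ± 0.150), Il1r2 (0.094 ± 0.074) and Il1rl1 (0.008 ± 0.008; SD, n = 5). Neighbours whose ranges over mice overlapped were Il1r1 and Il18bp, Il18bp and Il18, Il1rn and Il1a, Il1a and Il1b, and Il1r2 and Il1rl1. The accessory chain was thus the most abundant transcript of the family in controls, and the agonists were low. In CD95-Ab livers the order was Il1rn (118 ± 46 FPKM), Il1r1 (78.6 ± 13.1), Il1rap (35.0 ± 2.8), Il1b (19.3 ± 10.9), Il18bp (13.5 ± 8.5), Il18 (8.20 ± 0.88), Il1r2 (7.56 ± 4.51), Il1a (6.52 ± 2.50), Il33 (2.37 ± 0.61) and Il1rl1 (0.060 ± 0.041). The ranges of Il1rn and Il1r1 overlapped, as did those of each neighbouring pair from Il1b down to Il1a. The summed FPKM of the family went from 98.5 ± 8.4 to 289 ± 50 (SD, n = 5). Il1rap made up 53.0% ± 5.6 of that sum in saline and 12.4% ± 2.6 in CD95-Ab mice, and Il1rn made up 2.27% ± 1.39 and 39.6% ± 9.6.

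**Figure D3:**
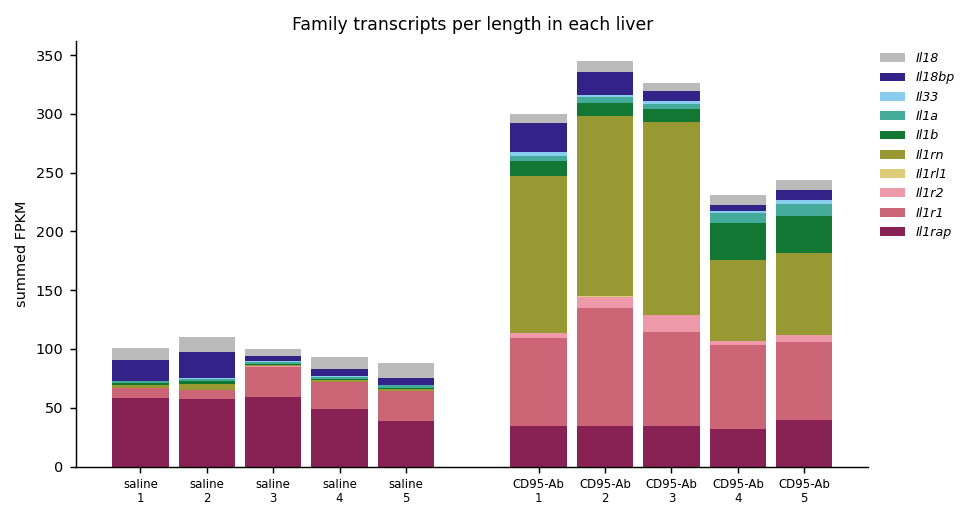
Summed FPKM of the 10 members (vertical axis, from 0) in each liver, stacked by gene. Il1rap fills 53.0% of the average saline bar, while Il1rn and Il1r1 fill 39.6% and 27.3% of the average CD95-Ab bar, and the green blocks of Il1b and Il1a are thickest in CD95-Ab mice 4 and 5.

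The balance between members was tested within each mouse, since such a ratio, before a value is added, does not depend on the library total. Of 6 ratios of FPKM, each with 0.05 added on both sides, 5 differed between the groups (exact two-sided permutation test, Benjamini-Hochberg over 6, n = 5 per group). Among these, the result for Il33 to Il1rl1 depended on the value added, as given below. The ratio of antagonist to agonists, Il1rn to the sum of Il1a and Il1b, was 0.744, 1.19, 0.674, 0.415 and 0.454 in saline mice and 7.65, 9.66, 10.8, 1.75 and 1.70 in CD95-Ab mice. The antagonist transcript was thus below the agonists in 4 of 5 saline mice and above them in all 5 CD95-Ab mice. The geometric mean rose from 0.646 to 4.73, a log2 difference of 2.87, with an exact p of 0.00794, the smallest possible for 5 against 5, and an adjusted p of 0.0119. CD95-Ab mice 4 and 5 lay much closer to the controls than mice 1 to 3.

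For the decoy against the signalling receptor, Il1r2 to Il1r1, the geometric mean rose from 0.00805 to 0.0855. The signalling receptor thus stayed far more abundant than the decoy per length in both groups, with the highest ratio at 0.179, in CD95-Ab mouse 3. The log2 difference was 3.41, with the same exact p and an adjusted p of 0.0119, but its size depended on the value added and was 1.36 with 0.5 FPKM. Il1rap to Il1r1 fell from 3.23 to 0.449, a log2 difference of -2.84 with the same exact p and an adjusted p of 0.0119. The accessory chain was the more abundant of the pair in every saline mouse, at ratios of 1.56 to 7.23, and the less abundant in every CD95-Ab mouse, at 0.342 to 0.593.

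Il1b to Il1a rose from 0.901 to 2.74, a log2 difference of 1.61 with the same exact p and an adjusted p of 0.0119, so the secreted agonist gained more than the membrane-associated one. For Il18bp to Il18 the geometric means were 0.903 and 1.41, with an exact p of 0.270 and the same adjusted p. The ratio of Il33 to Il1rl1 had geometric means of 8.58 and 22.6, with an exact p of 0.0159 and an adjusted p of 0.0190. Il1rl1 was at or near the value added in most mice, and the difference of this last ratio turned to -0.084 when it was computed from counts plus 0.5.

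**Figure D4:**
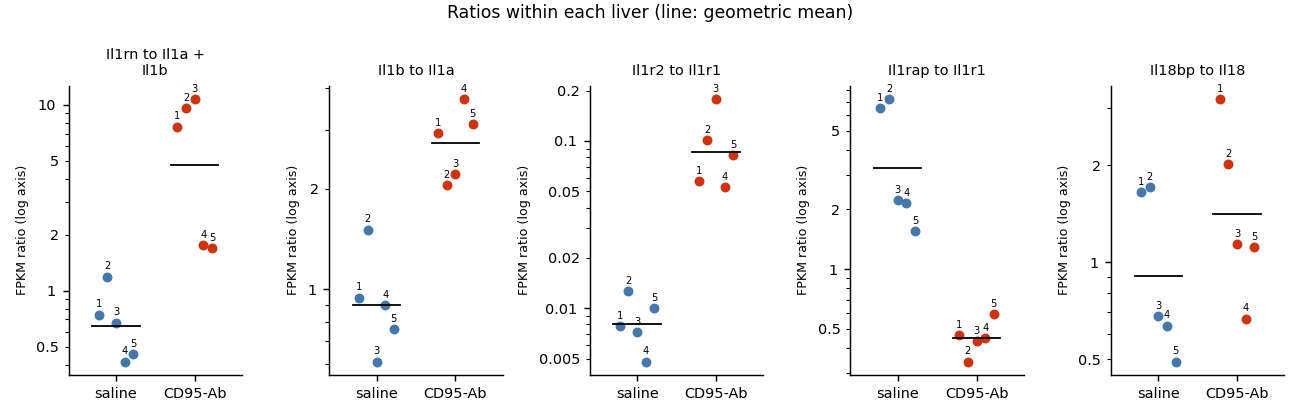
Ratio of FPKM within each liver (vertical log axes) for 5 pairs of members, with points numbered by replicate and lines at the geometric mean. The groups do not overlap for Il1rn to Il1a plus Il1b, Il1b to Il1a, Il1r2 to Il1r1 and Il1rap to Il1r1, and overlap for Il18bp to Il18.

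The rest of the family and its pathway were read from 5 lists of 69 genes in all, of which 56 were tested and 38 called, 35 higher and 3 lower. That is 67.9% of those tested, beside 47.3% of all tested genes. The lists were chosen with earlier results of these data known, so the pooled share describes them and tests nothing. The genes that IL-1 can induce gave 20 of the 38 calls, 95.2% of those tested in that list. The adaptors and kinases were at 43.8% and ligand processing at 46.7%, close to all tested genes. The remaining lists had 1 ligand and 3 receptors tested, all called. Of the other ligands, Il36g rose from 0.220 ± 0.144 to 4.80 ± 1.31 CPM, with a log2 fold change of 4.39 ± 0.37 (SE) and an FDR of 3.59e-06 by edgeR. Il36a, Il36b, Il36rn and Il1f10 had 0 counts in every mouse, which allows up to 0.121 CPM (3 counts) in CD95-Ab mouse 4, the library with the lowest TMM-adjusted total. Both IL-18 receptor chains rose, while Il18 was not called. Il18rap, the accessory chain, was at 0.428 ± 0.253 and 5.34 ± 1.54 CPM, with a log2 fold change of 3.58 (FDR of 3.58e-05 by edgeR). Il18r1, the ligand-binding chain, was at 0.257 ± 0.0757 and 1.38 ± 0.903 CPM, with a log2 fold change of 2.41 (FDR of 0.000648 by edgeR). Sigirr, a family receptor that dampens signalling, fell from 12.7 ± 1.34 to 8.23 ± 0.811 CPM, a log2 fold change of -0.62 (FDR of 0.00121 by edgeR). The IL-36 receptor Il1rl2 had 11 counts in the saline and 41 in the CD95-Ab mice and was not tested.

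Of 16 adaptors and kinases of the receptor complex, all tested, 5 were higher, 2 lower and 9 not called, with a median log2 fold change of 0.20. The 43.8% called was close to the 47.3% of all tested genes, and 31.25% were higher, beside 25.4% of all tested genes. The largest rises were those of Irak3, an inhibitory kinase-like member that blocks signalling, from 0.761 ± 0.256 to 18.1 ± 7.05 CPM (log2 fold change of 4.56), and of Tifa, a TRAF6-binding adaptor, from 10.9 ± 2.96 to 208 ± 37.7 CPM (4.25). Myd88, the common adaptor, rose with a log2 fold change of 1.29, Irak2 with 1.21 and Irak4 with 0.42. Irak1, Traf6 and Tollip were not called, with log2 fold changes of 0.19, 0.20 and 0.13. The 2 lower genes were Tab1 and Peli2, at -0.44 and -0.54.

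Among 18 genes of ligand processing, 15 were tested, 7 were higher (46.7%, beside 25.4% of all tested genes) and 8 were not called. As none was lower, 46.7% were also called in either direction, close to the 47.3% of all tested genes. The inflammasome sensors Nlrp3 and Mefv had log2 fold changes of 3.82 and 3.61, the inflammatory caspase Casp4 2.89 and the adaptor Pycard 2.06. Casp1, the protease that cuts the precursors of IL-1β and IL-18, rose with 1.14, and Gsdmd, the pore through which IL-1β leaves the cell, with 0.85. Nlrc4, another sensor, rose with 1.48.

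Of 24 genes that IL-1 can induce, 21 were tested, 20 were higher (95.2%, beside 25.4% of all tested genes), 19 of them past the size threshold, and C3 was not called at 0.50. The median log2 fold change was 3.97. This list was chosen with earlier results of these data known, so its share describes the list and tests nothing. Cxcl2, Sele, Nos2, Ptgs2 and Cxcl5 had 21, 9, 7, 7 and 4 counts over all saline mice. They passed the filter through the CD95-Ab mice and could hardly have been called lower. The chemokines Cxcl2, Ccl2 and Cxcl5 had log2 fold changes of 8.55, 7.97 and 4.64. The adhesion molecule Sele had 8.13, and the inflammatory enzymes Nos2 and Ptgs2 had 6.82 and 6.66. The acute-phase genes Saa3, Lcn2 and Saa2 were at 6.44, 5.90 and 4.42, and Tnfaip3, a brake on NF-kB, at 5.29. These genes also answer to other signals such as TNF and IL-6, and the ligand behind their rise was not tested.

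**Figure D5:**
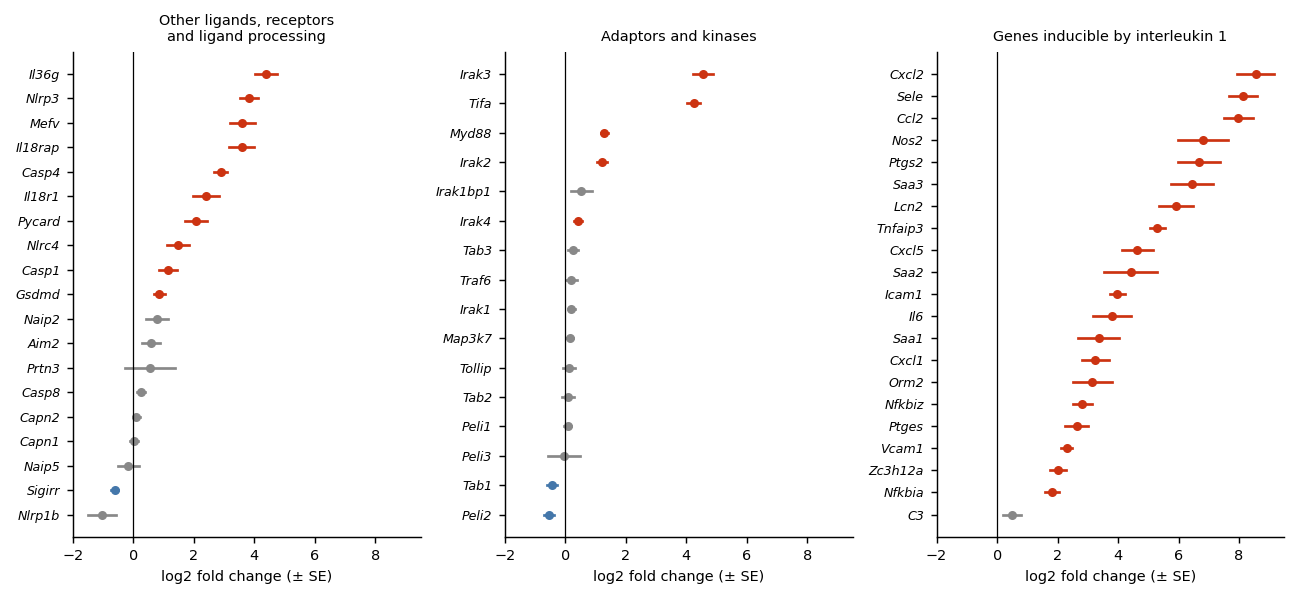
Log2 fold change ± SE of CD95-Ab over saline (horizontal axes) for the 56 tested genes of the wider pathway lists, red when called higher, blue when called lower and grey when not called. Most adaptors and kinases cluster around 0 apart from Irak3 and Tifa, whereas 20 of the 21 tested inducible genes are red.

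In whole liver, fewer cells of a type and less RNA per cell cannot be told apart, and cell type markers moved with the members. Beside the counts of called markers below, 25.4% of all tested genes were called higher and 22.0% lower. The summed CPM of 9 neutrophil markers was 4.19 to 10.7 in saline and 110 to 456 in CD95-Ab mice, and all 7 that could be tested were higher, while Ly6g and Camp were too low to test. That of 5 monocyte markers was 1.61 to 4.002 and 46.5 to 112, with all 5 higher. Mmp8 and Ngp of the neutrophil list and F13a1 and Vcan of the monocyte list passed the filter through the CD95-Ab mice. With 31, 22, 27 and 37 counts over all saline mice, they could hardly have been called lower. Neutrophils and monocytes are known to express Il1b, Il1rn, Il1r2 and Il18rap. Among CD95-Ab mice, the neutrophil sum was highest in mouse 3 and lowest in mouse 1, and the monocyte sum was highest in mouse 5 and lowest in mouse 4. Il18rap and Il1r2 were highest in mouse 3 and lowest in mouse 1, Il1b was highest in mouse 4 and lowest in mouse 2, and Il1rn was highest in mouse 3 and lowest in mouse 5. The sum of 9 Kupffer cell and macrophage markers was 168 to 570 and 317 to 734. Of these 9, 2 were higher (22.2%), a share near that of all tested genes. Their defining marker Clec4f had a log2 fold change of 0.10. The sum of 6 sinusoidal endothelial markers was 42.6 to 107 and 141 to 269, with 5 of 6 higher, and that of 6 stellate cell markers was 183 to 259 and 403 to 628, with 4 of 6 higher. Both cell types can express Il1r1 and Il33. The hepatocyte sum was 93950 to 118697 in saline and 39470 to 77699 in CD95-Ab mice, with 3 of 6 markers lower and a median log2 fold change of -0.59, beside -0.49 for Il1rap. The sum of 6 T and NK cell markers was 0.902 to 3.34 and 4.28 to 6.19. That of 6 mast cell, basophil and ILC2 markers was 1.16 to 5.21 and 7.61 to 14.99, mostly from Kit and Il7r (8.97 and 2.19 CPM on average in CD95-Ab mice), which other cells also express. Cpa3, Ms4a2, Mcpt8 and Gata3 were too low to test, with Cpa3 at most 0.0886 CPM in any mouse. The sum of 5 cholangiocyte markers was 18.3 to 33.8 and 48.3 to 186, with 4 of 5 higher. Globin transcripts also went up, from 31.5 to 241 CPM in saline to 991 to 33579 CPM in CD95-Ab mice, most in mice 3 and 4. The part of these shifts in the members' changes was not tested. Leaving out CD95-Ab mice 3 and 4 kept the number of members called at 7, while 5 were past the size threshold. CD95-Ab mice 1, 2 and 5 still had globin sums of 991, 6913 and 5185 CPM, above every saline mouse. Leaving out mice 3 and 4 therefore could not test the part of globin-bearing cells.

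The genes whose pattern over the 10 mice was most like that of a member were found by the root mean square (RMS) difference of centred log2 CPM, as a description. Il1rap was closest to Eif2ak1 and Gpbp1l1 (RMS differences of 0.081 and 0.085, against a median of 0.458 over all genes), and Il18 to Wdhd1 and Rab13 (0.143 and 0.146, against 0.520). For Il1r1 the closest were Agpat4 and Adcy1 (0.194 and 0.343, against 1.39), and for Il1a they were Gm6377 and F630028O10Rik (0.233 and 0.278, against 1.14).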

How the data were processed

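Liver RNA of 10 mice was sequenced in paired-end mode (500 ng of RNA per library, 100 bp reads). The authors estimated gene abundance with RSEM 1.2.19 and deposited, per mouse, expected counts (not normalized, whole numbers here) and FPKM scaled for length and library total. RSEM divided ambiguous reads between genes, and the mouse genome build and annotation are not given in the sources used here. The methods name a human Gencode release, whereas the deposited identifiers are mouse Ensembl identifiers. Totals were 25965699 to 62097636 counts, and 3 counts correspond to 0.0556 to 0.121 CPM on the TMM-adjusted scale. No libraries of a group agreed within sampling noise. Symbols and positions came from GENCODE mouse M21 (GRCm38), which matched 37606 of 38922 identifiers.

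The expected counts that the authors deposited were filtered with filterByExpr (minimum count of 10), scaled with TMM factors and tested in R 4.3.3 by the glmQLFTest function of edgeR 4.0.16, in a model of group alone. The SE was derived from the F statistic. CPM use a TMM-adjusted total of 1000000. The FPKM that the authors deposited were used for levels and ratios. DESeq2 1.42.0, limma 3.58.1 (voom), other scaling factors and filters, a block by replicate number, and leaving out each mouse served as alternatives. Code was tested on simulated counts. The members, the gene lists and the tests were chosen with earlier results of these data known. All 10 members are named, as are called genes of the wider lists whose log2 fold change was at least 2 in size (at most 10 per list) and some receptor chains and adaptors whatever their result. Nlrc4, Casp1, Gsdmd, Tab1, Peli2, C3 and the overlapping genes were named after their values were seen.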

Additional observations from a re-analysis of the deposited data

Results flagged for a closer look

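Of 32 groups of 5 mice checked for a mouse far from the rest, 2 held one, and chance gives about 1 in 20. Il1a was at 4.15 CPM in saline mouse 5, the deepest library, above the 2.65 to 2.89 CPM of the other 4 controls. Il1rn was at 7.56 CPM in saline mouse 2, above the 2.35 to 3.83 CPM of the other 4, and that mouse also had the highest control level of Saa1, an acute-phase gene, at 1456 CPM. Both values were below those of all CD95-Ab mice. Without the mouse in question, the log2 fold change of Il1a was 2.23 and that of Il1rn was 6.27.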

How the results depend on the processing

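Of 342 alternative values for 18 results, 334 were labelled the same as the main one. For fold changes and ratios, this means the same sign and the same side of an adjusted p of 0.05. For counts of genes, it means a number close to the main one. Crossing the size threshold of 2 did not enter these labels. The number of members called was 6 to 8, and 7 without any 1 mouse. It was 8 with no count filter and with DESeq2, which add Il1rl1, and 6 with at least 10 counts required in every mouse, which removes Il1r2. The number of members past the size threshold of 2 was 5 to 7, and 5 to 6 without 1 mouse. The number of called genes in the wider lists was 36 to 40 without 1 mouse. It was 25 with at least 10 counts in every mouse, which left out genes near absent in saline livers, so that fewer genes were tested. The log2 ratio of Il33 to Il1rl1 was 0.47 (exact permutation test, adjusted p = 0.389) with 0.01 FPKM added and reversed to -0.084 (adjusted p = 0.913) with counts plus 0.5. The log2 ratio of Il1r2 to Il1r1 ranged from 1.36 to 4.03 with the value added. The labels give replicate numbers but no pairing of mice, and correlations over 5 pairs cannot exclude one. Same-numbered mice correlated at -0.27 to 0.26 in their deviations, and 2 of 5 saline mice correlated best with their own number. A fit with a replicate block called 5987 genes, and the count of members stayed at 7. With the block, the FDR of Il18bp by edgeR was 0.115, beside 0.553 without it. An exact sign-flip permutation test over the 5 pairs cannot go below p = 0.0625, which it gave for Il1rn to Il1a plus Il1b (2.87), Il1r2 to Il1r1 (3.41), Il1b to Il1a (1.61), Il1rap to Il1r1 (-2.84) and Il33 to Il1rl1 (1.40), and also for Il18bp to Il18 (0.64), which was not called in the unpaired test. Leaving out both mice of the highest globin counts was chosen after seeing the data. Depth limited Il1rl1, which had at most 9 counts in a mouse, and the controls of Il1r2.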
